A study of Homo sapiens with 8 samples.

Results

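Gene expression in 4 ErbB2 knockdown clones (ErbB2-KD) of CAPAN-2 was compared with that in a pool of 4 Non Targeting (NT) control clones. The clones EV7, EV12, EV9 and EV18 were each hybridised on a single 2-colour array, and these 4 arrays, chosen by their labels, are 4 of the 8 arrays of the study. CAPAN-2 cells are a line derived from a human adenocarcinoma of the pancreas. By the methods, ErbB2-KD cells were made by stable transfection with a pGeneClip vector that carries puromycin resistance and an ErbB2 shRNA. NT cells received the empty vector, both were kept under puromycin, and clones were isolated by limiting dilution. Each ErbB2-KD value therefore comes from the descendants of a single cell, whereas the control, labelled as untreated, is a mixture of 4 such lines. The pool was in the other channel of every array, so it counts as 1 control sample and the spread between NT clones is in no test.

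ErbB2, encoded by ERBB2, is a receptor tyrosine kinase of the EGF receptor family. It has no known ligand of its own and signals as the partner of EGFR, ErbB3 or ErbB4, mainly through the RAS/MAPK and PI3K/AKT cascades. In pancreatic cancer cells it is known as a partner of the membrane mucin MUC4. The question put to these arrays was which genes and pathways depend on ErbB2 in these cells.

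Each array carried 41000 probes. The knockdown RNA was in Cy5 for EV7 and EV12 and in Cy3 for EV9 and EV18. EV7 and EV9 shared a slide, and the other two arrays were on slides of their own. Median spot signals were 100 to 593, and in each channel 62.2% to 74.2% of the probes were well above background. Saturation was seen in no spot. Repeat spots of a probe differed within an array by an SD of 0.0432 to 0.0562 on the log2 scale, which covers spot noise only. The number of arrays limits the precision of the values below. Of the 7 pancreatic duct markers examined (KRT7, KRT8, KRT18, KRT19, EPCAM, CDH1, SOX9), 6 were above background on all arrays in both RNAs and SOX9 was so in the NT pool on 3 arrays. Their median ratio was 0.53, with 1.18 in EV12 and 0.06 to 0.25 in the other clones. Of 6 fibroblast or stellate cell markers on the array, DCN, LUM and PDGFRB were above background on no array, COL1A2 and COL3A1 on some, and THY1 on all. Of the leukocyte markers, PTPRC, the pan-leukocyte CD45, was above background on 1 array, in the ErbB2-KD RNA, whereas CD14, CD68 and CSF1R were so on all arrays in both RNAs. The part of other cell types in the results was not tested. Values are log2 ratios of ErbB2-KD over the NT pool, in the order EV7, EV12, EV9, EV18 where 4 are listed. A gene is called when limma's adjusted p (Benjamini-Hochberg over all tested probes) is under 0.05, and ± is the SD over 4 clones. RNA was taken from whole cultures, so fewer cells with a transcript and less transcript per cell cannot be told apart.

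The targeted transcript was checked first. The brighter ERBB2 probe gave -0.58, -0.32, -0.33 and -0.38. It was below 0 in every clone, with a mean of -0.40 ± 0.12 (1.32-fold lower, adjusted p = 0.145), and so was not called. The other ERBB2 probe, which was also above background on all arrays, gave 0.04, 0.03, 0.06 and 0.01, so the reduction was seen with the brighter probe alone. It was much dimmer (mean log2 signal 7.63 against 12.24) and is a weak check of a small fall.

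Among the ErbB receptors, ligands and negative regulators limma called no gene of 19 tested, and 6 had an unadjusted p under 0.05. Over the whole array 4307 of 23869 tested probes did. EGFR, the prototype of the family, had values of -1.04, -2.75, -0.45 and -0.27, all below 0 but far apart between clones (-1.13 ± 1.13, adjusted p = 0.23). ERBB3, the kinase-impaired partner of ErbB2, lay between -0.33 and 0.28. The EGFR ligand amphiregulin, AREG, had values of 2.02, 0.02, 2.20 and 2.09. It was therefore about 4-fold higher in the clones other than EV12 and level with the pool in EV12 (mean 1.58, adjusted p = 0.117). HBEGF, a ligand of EGFR and ErbB4, was above 0 in all clones (0.43, 1.19, 1.25 and 0.65, adjusted p = 0.0776). Of the 11 negative regulators tested, LRIG1, which promotes receptor degradation, had the largest mean at 1.02 (adjusted p = 0.142). The brightest of 4 MUC4 probes gave 0.00, 0.73, 1.15 and 0.22 (mean 0.52), but the probes of this gene disagreed in sign. A probe that was nearly as bright (mean log2 signal 10.68 against 10.9) gave -1.81, -1.53, -1.21 and 0.57. Its mean was -1 (adjusted p = 0.259 by limma), so it was not called. The remaining MUC4 probes had means of 0.36 and -0.52. MUC1 was at 0.01 in EV7 and between -1.27 and -0.95 in the other clones (adjusted p = 0.144).

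Across the array, 342 of 23869 tested probes were called (1.43%), 131 higher and 211 lower. All of them had the same sign in the 4 clones, which the test favours because it sets the mean against the spread between clones. Taken by gene with the brightest probe of each, 95 of 12072 genes rose (0.787%) and 144 fell (1.19%), and the counts of each gene list below are to be read against these shares. At a 2-fold change with an unadjusted p under 0.01, 574 probes passed (2.4%), of which 569 had the same sign in all clones. At an unadjusted p under 0.05 alone, 4307 of the 23869 probes passed, 1784 higher and 2523 lower. Every list count given at that threshold is to be read against this share, which is far above 0.05. The count of called probes depended on single clones, with 0 without EV7 (3864 at an unadjusted p under 0.05), 487 without EV12, 4 without EV9 and 33 without EV18. With each array centred on its median in place of loess, 31 probes were called, 15 higher and 16 lower.

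The largest rises were in HSD17B12, an enzyme of very-long-chain fatty acid elongation, and MAGED1, a member of the MAGE family that binds the p75 neurotrophin receptor. HSD17B12 had values of 5.45, 3.30, 4.70 and 3.41 (mean 4.22 ± 1.04, 18.6-fold, adjusted p = 0.0158), and its signal in the NT pool was above background on 1 of 4 arrays. MAGED1 had values of 4.98, 3.84, 4.13 and 3.40 (4.09 ± 0.67, adjusted p = 0.00818), and its other probe gave 2.73. Both were past 3 log2 units in every clone.

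SRGN, the core protein of the proteoglycan serglycin, had values of 4.37, 1.77, 4.57 and 4.09. EV12 stood lowest and the other 3 clones lay close together. C6orf15 (mean 3.61) and MLPH, the melanophilin that links RAB27A to myosin (mean 3.18), were also among the highest. The other MLPH probes gave means of 0.53 and 0.90 and were not called. They were dimmer (mean log2 signal 7.56 and 7.44 against 9.96). Probes that were not well above background in the NT pool on any array give lower bounds only, made from the channel levels and open to dye bias. SCG5, the chaperone of prohormone convertase PCSK2, was at least 6.70-fold higher (adjusted p = 0.0227), dystrophin, DMD, at least 5.27-fold (adjusted p = 0.0252) and PABPC4L at least 5.22-fold (adjusted p = 0.0281). The other DMD probe gave a mean of 0.31 and was not called. Its mean log2 signal was 7.14 against 8.12.

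The steepest falls were those of H2AJ, SLC12A7 and RTL6, with SDs between clones of 0.35, 0.47 and 0.63. H2AJ, a histone H2A variant, had values of -4.87, -4.88, -5.32 and -4.46 (mean -4.88 ± 0.35, 29.5-fold lower, adjusted p = 0.00166), and its brighter probe gave -3.17. SLC12A7, the potassium-chloride cotransporter KCC4, had values of -4.46, -4.06, -5.20 and -4.64 (mean -4.59, adjusted p = 0.00411). The other probes of SLC12A7 gave -0.35 and -1.21 and were not called, so its fall rests on a single probe. They were dimmer (mean log2 signal 7.52 and 7.30 against 10.94) and are a weak check of it. RTL6, a gene derived from a retrotransposon, was not well above background in any ErbB2-KD clone and was at least 20.4-fold lower (adjusted p = 0.00785).

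BAMBI, a decoy receptor that dampens TGF-beta signalling, had values of -5.35, -2.79, -2.29 and -5.14 (mean -3.89, adjusted p = 0.04). EV7 and EV18 were thus more than 2 log2 units below EV12 and EV9. KLF13, a zinc finger transcription factor, had values of -4.69, -4.05, -1.41 and -4.42 (adjusted p = 0.0421), with EV9 apart from the rest, and its other probe, which was not called, gave -0.96. CX3CL1, the membrane-bound chemokine fractalkine, had values of -2.85, -4.75, -2.93 and -2.83 (mean -3.34, adjusted p = 0.0227), with means of -1.04 and -0.43 from its other probes. OLR1 (-3.33, the oxidised LDL receptor), C1S (-3.08, a protease of the complement pathway) and COL5A1 (-3.05, a fibrillar collagen chain) fell in all clones. DET1 (-3.65) and CDH18 (-3.23) fell too, and were above background in 1 and 2 of the ErbB2-KD arrays.

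**Figure D1:**
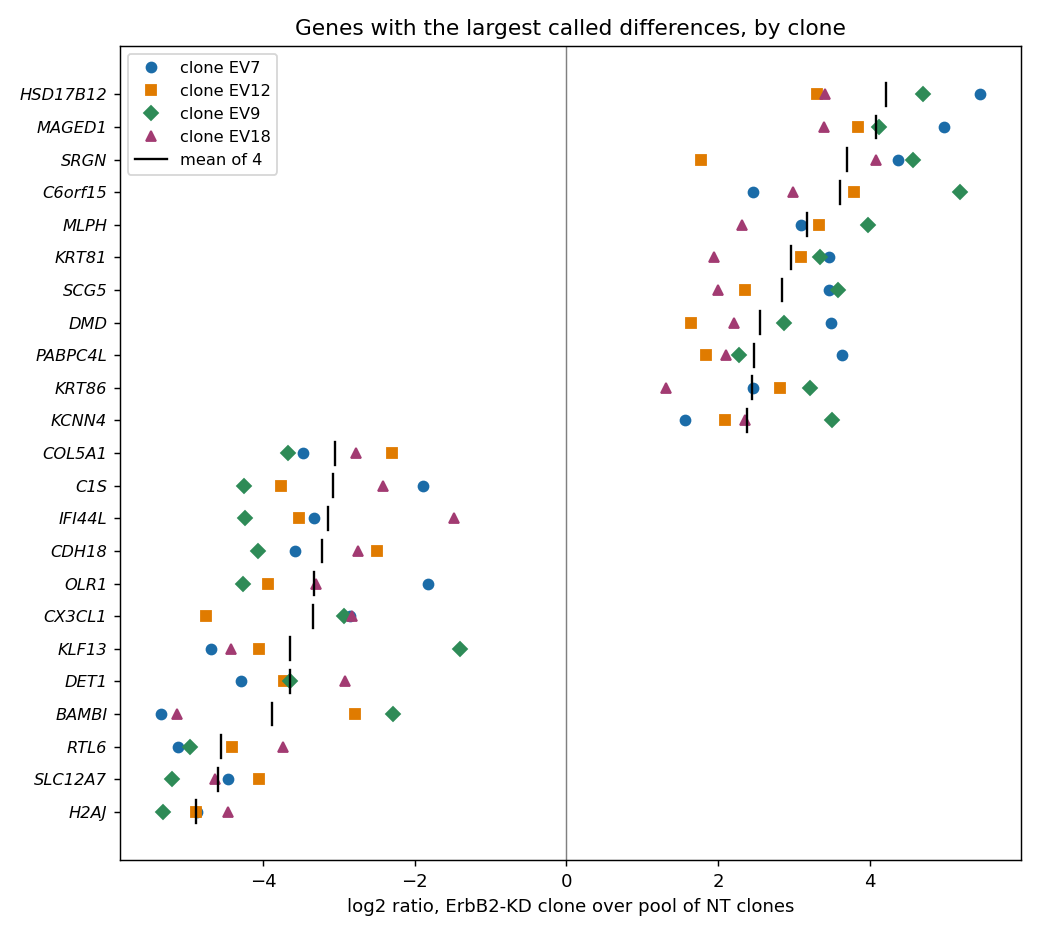
Log2 ratios of ErbB2-KD over the NT pool (horizontal axis) for 11 genes with the largest called rises and 12 with the largest called falls, 1 point per clone with a bar at the mean of 4. H2AJ lies between -5.32 and -4.46 in all clones, while SRGN is lowest in EV12 (1.77) and KLF13 is closest to 0 in EV9 (-1.41).

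The clones agreed on a small core of genes and differed on many more. Of 23817 probes with a value on all 4 arrays, 3849 (16.2%) were past 2-fold in at least 1 clone. Of these 3849, 185 (4.81%) were past 2-fold in the same direction in all 4 clones, 68 higher and 117 lower. A change in 1 clone alone accounted for 2631 (68.4%), and 118 (3.07%) were past 2-fold upwards in some clones and downwards in others. Over all probes 27.4% had the same sign in the 4 clones.

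EV12 and EV9 departed most from the pool, with 8.88% and 8.23% of probes past 2-fold, against 3.94% in EV7 and 3.08% in EV18. Probes past 2-fold in a single clone numbered 1321 for EV12, 952 for EV9, 279 for EV7 and 79 for EV18. The Pearson correlation between clones, taken across 23817 probes that all share the NT pool in their other channel, was highest for EV9 and EV18 (r = 0.72) and lowest for EV12 and EV18 (r = 0.21). The pairs with the same dye orientation were EV9 and EV18, and EV7 and EV12 (r = 0.29). EV7 and EV9, the pair on a common slide, had an r of 0.37. The parts of dye and slide in these values were not tested. Where a probe was past 2-fold in both clones of a pair, the directions were alike in 85.0% (EV7 and EV12) to 99.0% (EV7 and EV18) of cases. Over all tested probes the median SD between clones was 0.30 and the median size of the mean was 0.17, whereas among called probes these were 0.37 and 1.37. Called probes are selected for a mean that is large against the SD.

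**Figure D2:**
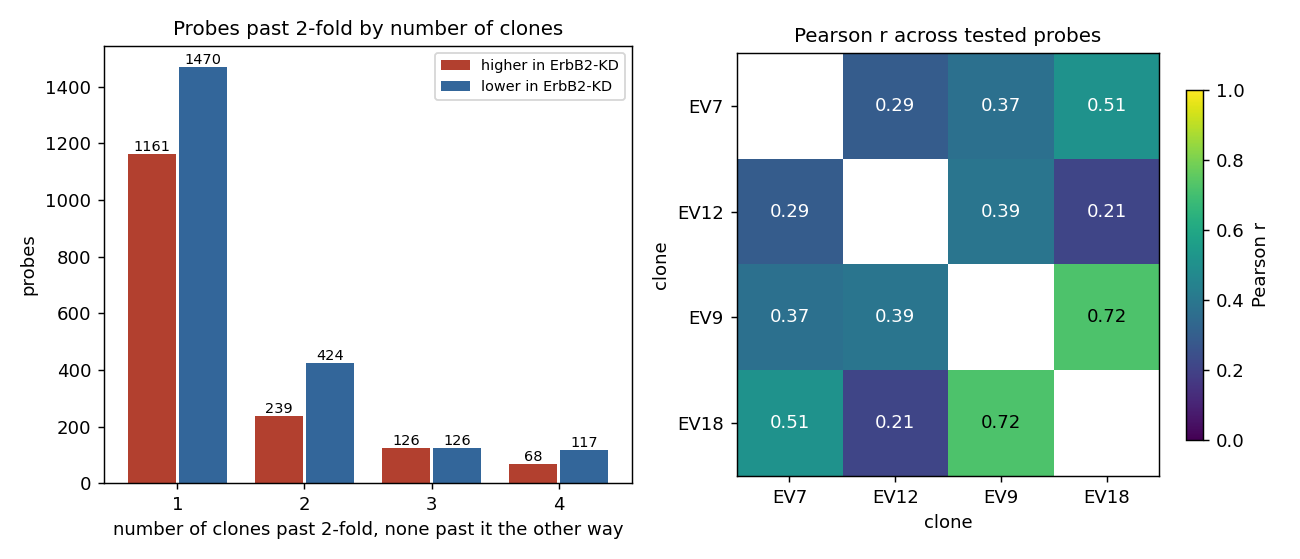
Left, number of tested probes past 2-fold (vertical axis) in 1, 2, 3 or all 4 ErbB2-KD clones with none past it the other way (horizontal axis), higher and lower separately. Right, Pearson r between clones across 23817 probes. Counts drop from 1161 higher and 1470 lower in a single clone to 68 and 117 in all 4, and r spans 0.21 to 0.72.

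Some genes stood far from the pool in a single clone, and were picked for that distance, so their values are a description. In EV7, AGR2, a disulphide isomerase of secretory epithelia, was at 3.45 while the other clones lay between -0.23 and 0.16, and the HIF target ANKRD37 was at 2.26 against -0.37 to 0.00. In EV12, CYP1A1, the xenobiotic-metabolising target of the aryl hydrocarbon receptor, was at -2.98 against -0.34 to 0.17. EGR1, an immediate early factor, was at 1.52 in EV12 and between -1.49 and -1.09 elsewhere. In EV9, the ligand BMP6 was at 3.78 against 0.01 to 0.49, and the growth factor receptor IGF1R at 2.59 against -0.62 to 0.23. EV18 stood apart mainly by smaller shifts, such as IFI6 at -0.82 where the other clones were at -3.05 to -2.06.

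The genes with the largest SD between clones lay on both sides of 0. CSTA, a cysteine protease inhibitor of epithelia, had values of 3.60, -1.79, -2.66 and 0.48, and ALOX5AP, the 5-lipoxygenase activating protein, of 2.92, -2.64, -1.92 and 1.98. S100A8, a calcium-binding protein of inflamed epithelium, had values of 1.90, -2.41, -2.74 and 0.69. In these 3 genes EV7 and EV18 were above the pool and EV12 and EV9 below it. The acute phase genes SAA1 (2.42, -3.18, 0.93 and 1.96) and LCN2 (1.63, -3.57, -0.35 and 1.86) were lowest in EV12. The imprinted non-coding RNA H19 had values of -1.57, 3.32, 2.93 and -0.67, and CDKN1C, the imprinted CDK inhibitor p57, of -4.55, -3.39, 1.26 and -3.01.

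Genes were next read in 32 pathway and family lists, each described by its calls and its median beside those of all 12072 tested genes, whose median was 0.00. Targets of MAPK feedback and ETS factors are induced when the RAS/MAPK cascade is active. Of 21 tested, 5 rose and none fell, with a median of 0.45. The list was mixed, with 15 means above 0 and 6 below it (lowest -0.82). At an unadjusted p under 0.05, 13 were higher and 1 lower. The medians in the 4 clones were 0.48, 0.70, 0.47 and 0.48, so no clone was below 0. KCNN4, a calcium-activated potassium channel, had values of 1.57, 2.09, 3.51 and 2.36 (5.21-fold, adjusted p = 0.0314). PLAUR, the urokinase receptor, had the tightest values at 1.48, 1.46, 1.80 and 1.85 (adjusted p = 0.0118). EMP1, an epithelial membrane protein, had a mean of 1.74 and HMGA2, a chromatin architectural protein, of 1.19. TRIB1, a pseudokinase, had a mean of 1.32 (0.30 with its other, much dimmer probe). Of 19 AP-1 and immediate early factors limma called none, and 4 had an unadjusted p under 0.05. FOSL1, an AP-1 subunit, was above 0 in all clones (0.59, 1.41, 2.47 and 1.35, adjusted p = 0.0786), and ATF3 was below 0 in all (mean -1.49, adjusted p = 0.197).

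Interferon-stimulated genes encode antiviral effectors and are switched on through STAT and IRF factors. Of 55 effectors tested, 3 fell, none rose, and 51 had a mean below 0. Their median was -0.80, with -0.47, -1.23, -1.24 and -0.32 in the clones, so that EV12 and EV9 were lowest. IFI44L had values of -3.33, -3.53, -4.24 and -1.48 (8.85-fold lower, adjusted p = 0.0366) and was above background in 2 of 4 ErbB2-KD arrays. TYMP, thymidine phosphorylase, had values of -1.74, -1.44, -1.91 and -1.93 (adjusted p = 0.0106) and was the most even of the list's called genes. Its other probe gave 0.09, 0.05, -0.19 and -0.04, so its fall rests on a single probe. That other probe was dimmer (mean log2 signal 7.74 against 10.63). APOL1, a trypanolytic apolipoprotein, had values of -0.88, -1.54, -1.67 and -0.81 (adjusted p = 0.0436). Its other probe gave a mean of -0.76 and was not called. At the looser threshold of a 2-fold change with p under 0.01, 21 of the 55 were lower and none higher, against 157 genes higher (1.3%) and 238 lower (1.97%) over the whole array. IFI6 (-2.09), IFITM1 (-2.01), OASL (-1.91) and OAS1 (-1.49) were below 0 in all clones with adjusted p of 0.0516 to 0.0536. GBP2 went against the list in EV7 (2.14) and EV18 (1.37), but not on average in EV12 and EV9, as no effector had a mean above 0.57. Probes of near-identical genes such as IFITM1, IFITM2 and IFITM3 may bind each other's transcripts.

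Among 24 RNA sensors, STATs and IRFs, the signalling layer above these effectors, 17 had a mean below 0 and the median was -0.28. MHC class I presentation, which loads peptides for T cells, had 18 of 21 genes below 0 and a median of -0.75. The clone medians were -0.28, -1.33, -0.67 and -0.36, with EV12 lowest. TAPBPL, a peptide editor related to tapasin, fell (-0.79, adjusted p = 0.0494). The peptide transporter TAP1 had values of -1.01, -2.56, -1.36 and -1.01 and the immunoproteasome subunit PSMB9 of -0.94, -2.94, -1.41 and -0.88. They had adjusted p of 0.0691 and 0.106 and were not called.

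The interferon-stimulated response element is the DNA motif bound by STAT and IRF complexes. Its core (GAAANNGAAA, or TTTCNNTTTC on the other strand) was searched in the 250 bases upstream of the RefSeq start (GRCh38.p14). It was present in 25 of 42 effector promoters available (59.5%), in 7 of 17 of MHC class I genes (41.2%) and in 227 of 9820 tested genes (2.31%). Of all 27305 promoters given, 839 held it (3.07%). The sequences show the core as it stands in 3 of the effectors described above and in 2 genes of MHC class I presentation. They run 5′ to 3′ on the strand of the gene, with the motif in capitals.
IFI44L, chr1:78620259-78620318, plus strand: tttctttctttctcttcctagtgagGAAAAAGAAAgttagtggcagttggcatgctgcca
IFI6, chr1:27672314-27672373, minus strand: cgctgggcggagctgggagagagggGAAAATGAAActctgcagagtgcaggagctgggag
IFITM1, chr11:313975-314034, plus strand: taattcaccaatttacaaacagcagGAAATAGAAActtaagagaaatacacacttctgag
TAP1, chr6:32853798-32853863, minus strand: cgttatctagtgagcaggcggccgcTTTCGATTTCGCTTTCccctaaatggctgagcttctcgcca
B2M, chr15:44711348-44711413, plus strand: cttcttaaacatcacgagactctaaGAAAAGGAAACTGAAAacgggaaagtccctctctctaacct

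In TAP1 and B2M a pair of overlapping cores forms a longer run. Within the lists, ratios were compared between genes with and without the core, with no test. The 25 effectors with it had a median of -0.73 and the 17 without it of -0.56, and in MHC class I the medians were -0.55 with it and -0.80 without it. The effectors with the core were at -0.45, -1.39, -1.30 and -0.13 in the 4 clones.

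NF-kB targets, cytokines and chemokines were, of the 32 lists, the one whose median differed most between clones. Of 37 tested, 7 fell and 1 rose, with a median of -0.74 made of 0.11 in EV7, -1.79 in EV12, -0.95 in EV9 and -0.06 in EV18. Besides CX3CL1, the called falls were LTB (-1.87, -2.43, -1.52 and -2.34), a lymphotoxin subunit, SERPINA3 (-2.31, and -0.99 with another probe, not called), the chemokines CCL5 (-1.70) and CCL2 (-1.62), and the transcription factors CEBPD (-1.38) and RELB (-1.20). RELB, a subunit of NF-kB itself, was at -1.13, -1.56, -1.06 and -1.05. NLRP3, the inflammasome sensor, rose with values of 1.92, 2.39, 2.61 and 1.92 (4.63-fold, adjusted p = 0.0106). The cytokine gene IL1B had values of 4.44, -0.68, 2.98 and 5.29 and the complement gene C3 of 3.79, 0.82, 4.42 and 3.80. Neither was called, and in both EV12 was well under the other clones.

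**Figure D3:**
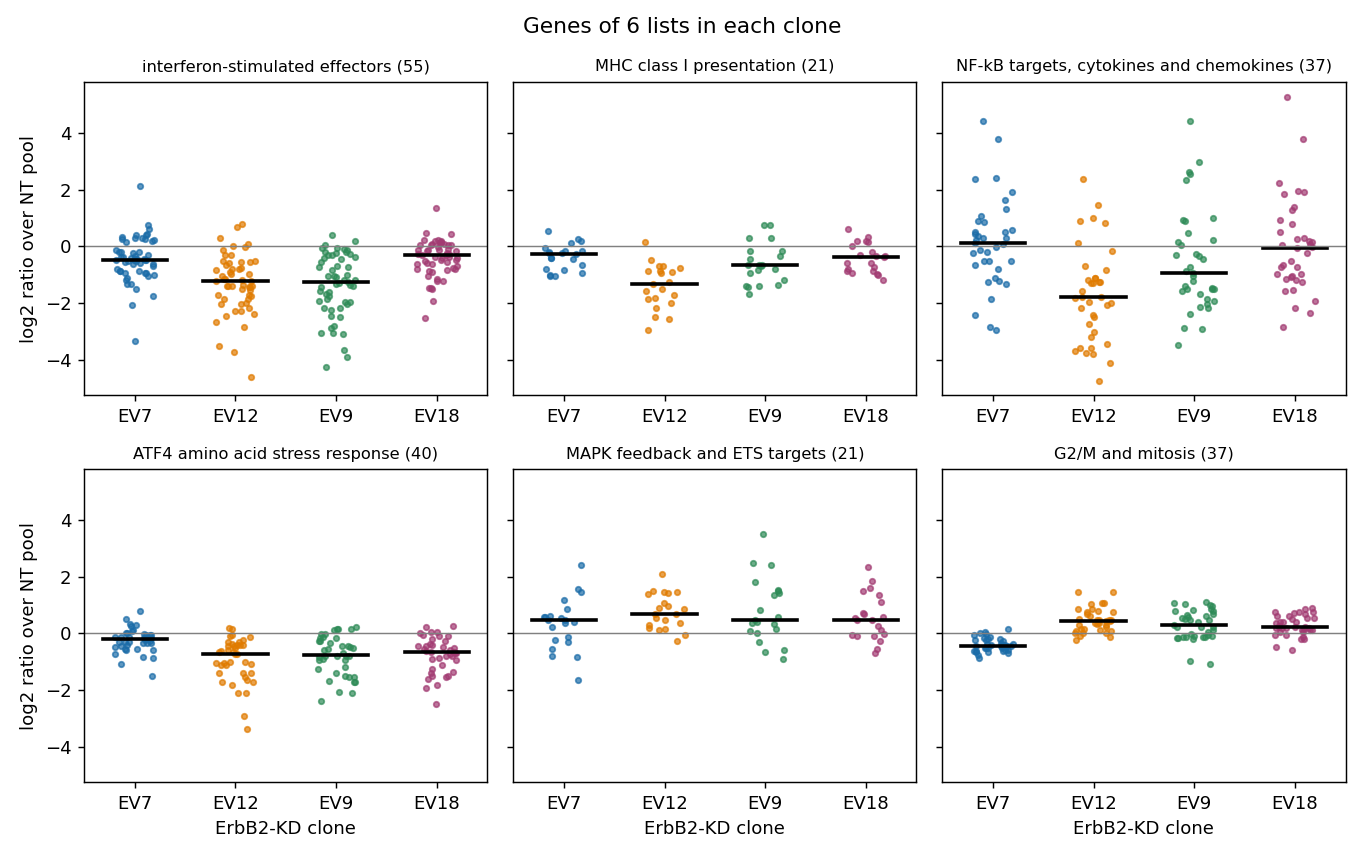
Log2 ratio over the NT pool (vertical axis) of every tested gene of 6 lists in each ErbB2-KD clone, with a bar at the median and the number of genes in brackets. Medians of interferon-stimulated effectors are -0.47 in EV7 and -1.23 in EV12, those of NF-kB targets 0.11 and -1.79, and those of MAPK feedback and ETS targets lie between 0.47 and 0.70 in all clones.

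ATF4 drives amino acid synthesis, uptake and tRNA charging under nutrient stress. Of its 40 genes tested, 39 had a mean below 0, 1 fell and none rose. The median was -0.56, with -0.19 in EV7 and -0.73, -0.74 and -0.66 in EV12, EV9 and EV18. IARS1, isoleucyl-tRNA synthetase, was the called gene (-1.08, -1.03, -1.49 and -1.25, adjusted p = 0.0227). PCK2, mitochondrial phosphoenolpyruvate carboxykinase, was at -0.31 in EV7 and -1.93 to -1.70 in the others, and the stress protein NUPR1 at -0.22 against -2.39 to -1.83. The amino acid response element TTGCATCA (TGATGCAA on the other strand) was found in 3 of 33 promoters of the list (9.09%) and 40 of 9820 of tested genes (0.407%). IARS1 and CHAC1, a glutathione-degrading enzyme (mean -1.07, adjusted p = 0.0702), were among the 3, and are printed as above.
IARS1, chr9:92293698-92293735, minus strand: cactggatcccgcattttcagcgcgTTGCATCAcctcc
CHAC1, chr15:40953237-40953294, plus strand: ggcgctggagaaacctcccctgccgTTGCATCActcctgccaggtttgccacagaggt

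NRF2 targets protect against oxidative stress. Of 20 tested, 4 fell and none rose, with a median of -0.41. The list was mixed, with 14 means below 0 and 6 above it (highest 1.61). At a 2-fold change with an unadjusted p under 0.01 by limma, 2 were lower and 1 higher. HMOX1, haem oxygenase 1, had values of -1.57, -3.01, -2.80 and -2.59 (5.63-fold lower, adjusted p = 0.0216). TXNRD1, thioredoxin reductase, was nearly identical in the clones (-0.83, -0.91, -0.78 and -0.95, adjusted p = 0.0277). PIR (-1.43) and SRXN1, sulfiredoxin (-0.76), also fell. None of 18 genes of the endoplasmic reticulum unfolded protein response was called by limma or had an unadjusted p under 0.05, and the clone medians spread from 0.70 in EV7 to -1.05 in EV12.

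No gene of the mitotic or replication lists was called by limma, and 3 of the mitotic and 4 of the replication genes had an unadjusted p under 0.05. The 37 G2/M genes had medians of -0.43 in EV7 and 0.44, 0.30 and 0.24 in EV12, EV9 and EV18, so EV7 was on the other side of 0. The 34 G1/S and replication genes had medians of -0.55, 0.33, -0.08 and -0.03, again with EV7 lowest. Of 19 G1 cyclins, CDKs, pocket proteins and CDK inhibitors, CDKN2B, the inhibitor p15, fell (-1.01, -1.26, -2.40 and -1.86, adjusted p = 0.0418). Its other probe gave a mean of -0.73 and was not called. CDKN1B (p27) had a mean of -0.20, CDKN1A (p21) of 0.35 and CCND1 (cyclin D1) of 0.08, with CCND1 at -0.82 in EV7 and 0.86 in EV12. In the apoptosis list of 38 genes, BNIP3, a mitochondrial BH3 protein and hypoxia target, fell in a narrow range (-1.30, -1.70, -1.40 and -1.48, adjusted p = 0.0141). The pore-forming BAK1 was above 0 in all clones (0.75, 0.47, 1.42 and 1.24) without being called (adjusted p = 0.0707). None of 23 p53 targets was called by limma, and 5 had an unadjusted p under 0.05, against 4307 of 23869 over all tested probes.

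In the TGF-beta list of 30 genes, BAMBI and PMEPA1 (-0.94), both inhibitors of the pathway, fell. The other PMEPA1 probe gave -0.64, 0.54, -2.44 and -1.72 and was not called. SMURF2, a ubiquitin ligase for the pathway's receptors, rose (0.95, adjusted p = 0.0369). The matrix protein THBS1 had values of 2.03, 5.93, 4.47 and 1.86 and was not called (adjusted p = 0.0762). Among 12 mesenchymal genes that could be tested, the receptor kinase AXL rose (0.83, 1.53, 1.73 and 1.89, adjusted p = 0.0326) and COL5A1 and PRRX2 (-1.10) fell. Of 30 epithelial and duct genes limma called none, while 9 had an unadjusted p under 0.05. Of 35 collagens, laminins and matrix genes, 4 rose and 3 fell. ECM1 had a mean of 1.74 and FBLN1, fibulin 1, of -2.20 (-1.86, -2.50, -1.81 and -2.63, adjusted p = 0.0146).

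Among 34 ephrins, semaphorins and guidance genes, EFNB2, the ligand ephrin B2, rose (1.44, 2.66, 2.24 and 1.28, adjusted p = 0.0348), as did DPYSL3 (1.27), whereas DPYSL5 (-2.41) and the secreted guidance cue SEMA3C fell. SEMA3C was even in the clones, at -1.29, -1.11, -0.98 and -1.01 (adjusted p = 0.0227). The 51 histone genes had a median of -0.36 and 5 falls, all among H2A genes whose near-identical sequences make it uncertain which copy a probe reads. H2AC11 (-2.56), H2AC15 (-1.96) and H2AC12 (-1.38) were among them. Cancer-testis and MAGE genes had a median of 0.68 over 13 tested. PAGE5 (4.25, 0.46, 3.72 and 1.96) and PAGE2 (4.65, 0.16, 3.23 and 1.69), whose probes may cross-bind, were near the pool in EV12 and were not called. MAGEF1 fell (-1.12, adjusted p = 0.0281). Of 31 genes of cholesterol and fatty acid synthesis limma called none, and 7 had an unadjusted p under 0.05.

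**Figure D4:**
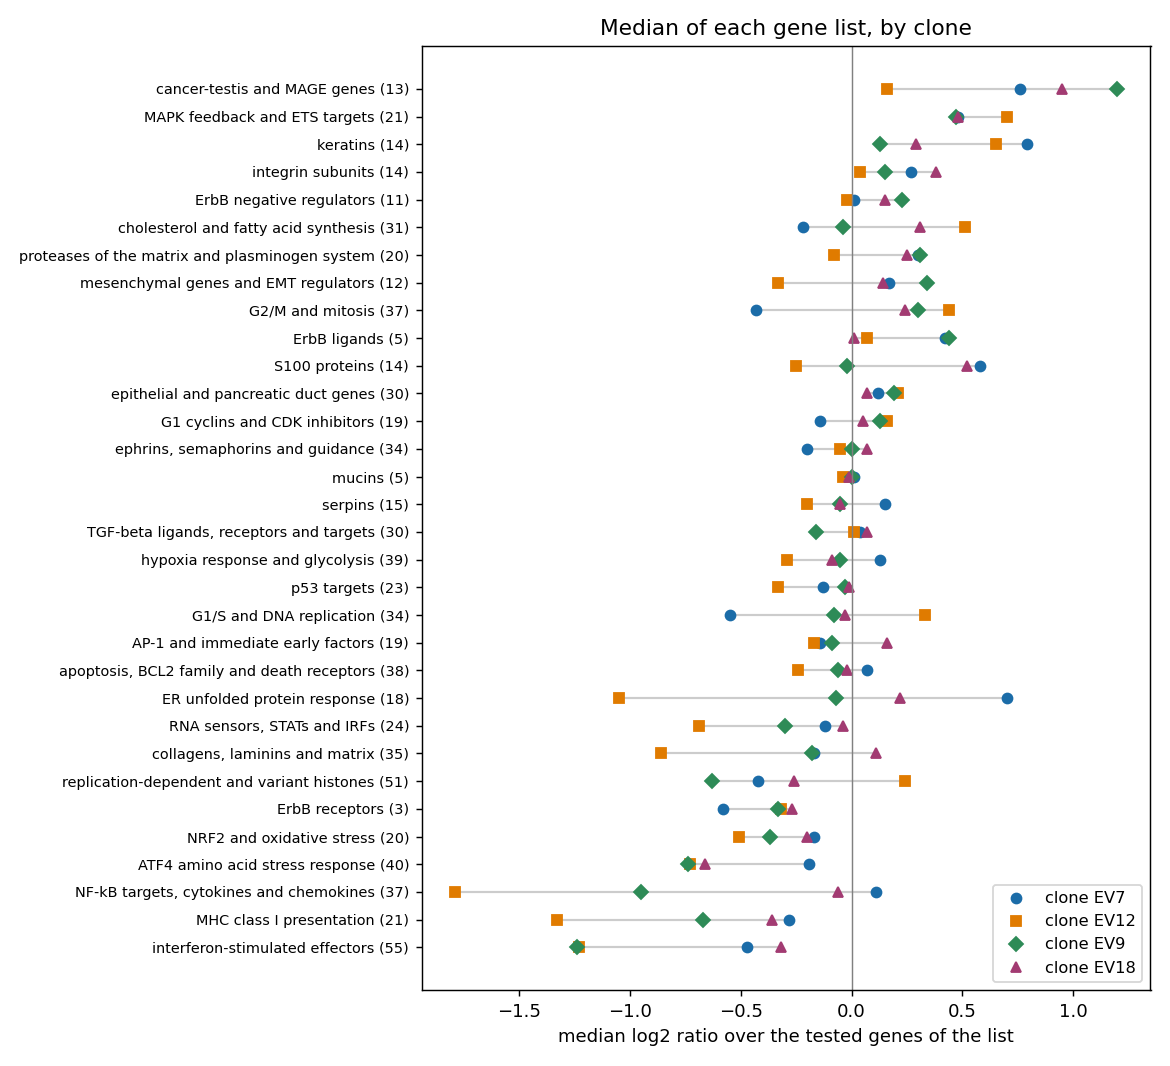
Median log2 ratio over the tested genes (horizontal axis) of each gene list in each ErbB2-KD clone, with the number of tested genes beside the list's name. The lists of interferon-stimulated effectors, MHC class I presentation and the ATF4 response are below 0 in all 4 clones and MAPK feedback and ETS targets above 0 in all 4, while the unfolded protein response ranges from -1.05 in EV12 to 0.70 in EV7.

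Genes were also read in chromosome order, using the order of 12055 tested genes in RefSeq. A window of 20 neighbouring genes counted as shared when its median was past 0.40 in the same direction in all 4 clones. Windows merged into 5 runs holding 161 genes (1.34%), 103 in runs that were higher and 58 in runs that were lower. Called genes made up 16 of these 161 (9.94%) and 223 of the genes outside (1.87%). The runs use the same ratios as the calls, so these shares are a description. The medians over a whole merged run can be under 0.40. Of the 5 runs, 3 were higher. With median centring, and with windows of 40 genes, 1 higher run was left and no lower one. That run held 33 and 53 genes, and 29 and 48 of these were in the main runs. The lower runs on chromosomes 9 and 22 were thus not found under either. The higher runs described below were not all kept under either.

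On chromosome 6, the 48 genes from TAPBP to GLO1 had medians of 0.44, 0.47, 0.53 and 0.59, and 47 of them had a mean above 0. The 26 genes from SLC29A1 to CILK1 had medians of 0.55, 0.55, 0.49 and 0.51, and all 26 were above 0. Most of these genes did not pass the test singly, and 1 and 2 of them rose. SNRPC, a U1 snRNP subunit, rose by 0.63, 0.72, 0.76 and 0.79 (adjusted p = 0.0393), and in the other run CDC5L, a splicing factor (0.72), and RUNX2, a Runt transcription factor (2.00), rose. CDKN1A and BAK1 lie in the run from TAPBP to GLO1.

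The run on chromosome X from KDM5C to AMER1 held 29 genes with medians of 0.61, 0.35, 1.00 and 0.33, of which 5 rose (17.2%). These were PHF8, a histone demethylase (1.36, 1.86, 1.52 and 1.62), GNL3L (mean 1.37), APEX2 (1.60), VCF2 (1.86) and UBQLN2, a ubiquilin (1.15). MAGED2, MAGEH1, PAGE2 and PAGE5 of the cancer-testis list are in it. With the genes of chromosomes 6, 9, 22 and X left out, that list keeps a single gene, MAGEF1.

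On chromosome 9 the 26 genes from GADD45G to ERCC6L2 had medians of -0.45, -0.46, -0.54 and -0.36, and all 26 were below 0. IARS1 is 1 of its 2 called genes, and ECM2, a matrix protein (at least 2.70-fold lower, adjusted p = 0.0238), the other. On chromosome 22 the 32 genes from PISD to CYTH4 had medians of -0.41, -0.44, -0.34 and -0.30, and 6 fell (18.8%). They were HMGXB4, HMOX1, MB, which encodes myoglobin (-2.08), APOL3 (-1.84), APOL1 and MYH9, the non-muscle myosin heavy chain (-1.51). HMOX1 of the NRF2 list and APOL1 of the interferon list are thus neighbours in this run. TYMP, another called interferon effector, whose fall rests on a single probe, is also on chromosome 22, where 17 of 309 genes fell and none rose. Without all genes of the shared runs the interferon median was -0.73, and without the whole of chromosomes 6, 9, 22 and X it was -0.71.

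**Figure D5:**
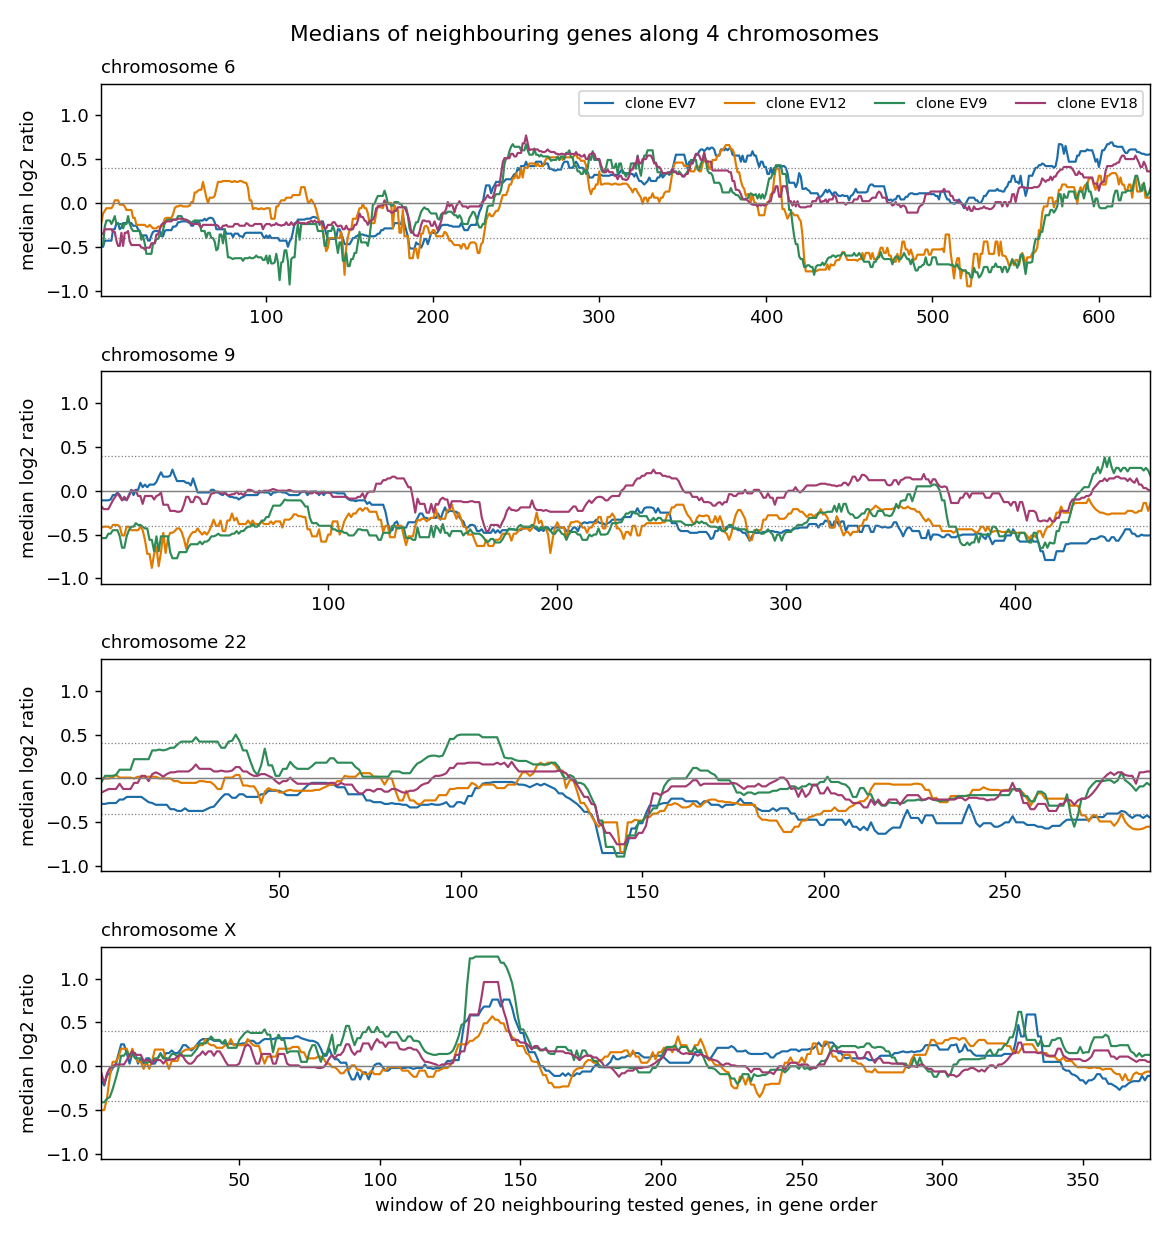
Median log2 ratio (vertical axis) in windows of 20 neighbouring tested genes along chromosomes 6, 9, 22 and X (horizontal axis, window number in gene order), 1 line per ErbB2-KD clone, with dotted lines at 0.40 and -0.40. All lines rise together from TAPBP to GLO1 on chromosome 6 and near KDM5C on chromosome X, and EV12 and EV9 alone run below 0 over 138 genes further along chromosome 6 (medians of -0.63 and -0.68).

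Other runs were seen in some clones and not in the rest. A run was assigned to a pair of clones when the window medians of both were past 0.50 and those of the other two within 0.15, a rule set after the values were seen. All such runs, 7 lower with 388 genes and 2 higher with 53, belonged to EV12 and EV9. These clones were on different slides and in opposite dyes, and the parts of slide and dye in these runs were not tested. On chromosome 6, the 138 genes from TENT5A to MAP3K5 had medians of 0.11 in EV7, -0.63 in EV12, -0.68 in EV9 and -0.01 in EV18. On chromosome 13, the 80 genes from POMP to NEK3 had medians of 0.09, -0.60, -0.74 and -0.02, with 73 genes below 0 in EV12 and 74 in EV9. On chromosome 9, the 57 genes from SLC1A1 to CHMP5 had medians of 0.08, -0.49, -0.58 and -0.10.

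Members of the lists lie in these runs too. CDKN2A, CDKN2B, JAK2 and the RNA sensor RIGI are in the chromosome 9 run. PARP9 and DTX3L, an interferon-induced pair, are in a run of 24 genes from POGLUT1 to DTX3L on chromosome 3 with medians of -0.60 in EV12 and -0.76 in EV9. CSTA, the gene with the largest SD, is in that run as well. Runs in 1 clone alone were 3 in EV7, 5 in EV12, 5 in EV9 and none in EV18, such as 36 genes from RAD54B to KLF10 on chromosome 8 at 0.51 in EV12 and 33 genes from SPAG9 to GDPD1 on chromosome 17 at -0.46 in EV9.

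Called genes also lay side by side. Stretches of at least 3 genes called in the same direction within 10 tested neighbours, again a rule set after the values were seen, numbered 7 and held 27 of 239 called genes (11.3%). The runs on chromosomes 22 and X hold 2 of these stretches. H2AJ, the steepest fall, is beside SMCO3 (-1.92), ART4 (at least 3.55-fold lower) and ERP27, a disulphide isomerase homologue (-1.84), on chromosome 12, where 4 of 6 tested genes fell. On chromosome 3, CHMP2B (-1.41), CGGBP1 (-1.37) and C3orf38 (-1.14) are 3 tested genes in a row, all of which fell. On chromosome X, DMD, XK (1.24) and SRPX (2.31) rose together, and on chromosome 6 SYTL3, EZR and TCP1 did so, with EZR, the membrane-cytoskeleton linker ezrin, at 1.00, 1.37, 1.41 and 1.78. Copy number was not measured on these arrays.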

How the data were processed

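RNA of 4 ErbB2-KD clones was measured on Agilent 2-colour arrays against a pool of 4 NT clones. Groups, clones and dyes were taken per the labels, which name the clones as separate samples. Arrays were scanned and read with Feature Extraction 10.5 (10.5.1.1 per the file headers), and the methods name GeneSpring for the later steps. The authors deposited the raw median spot and background intensity of each channel and a log10 ratio (Cy5 over Cy3) computed by Feature Extraction after its own correction. The deposited table of log10 ratios holds the same values, turned to knockdown over control where needed (largest difference 4.99e-06). Its 4 columns of the other arrays of the study were not used. The mean spot intensity had been planned and the median, which the files hold, was used.

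Background was corrected in limma 3.58.1 (R 4.3.3) by normexp (offset 50), spots marked as outliers were dropped, each array was normalised by loess, and 43376 spots were averaged to 41000 probes. A probe was tested when well above background on all 4 arrays in either RNA (23869 probes). lmFit and eBayes tested whether the mean log2 ratio was 0, with Benjamini-Hochberg adjustment. With 4 arrays the smallest p of an exact sign test is 0.125. Probes were named by accession (25398) or by the study's lists (192) through RefSeq, and 15410 have no name here. A gene takes its brightest tested probe. Near background the offset draws ratios towards 0, so a dim second probe is a weak check of a change. On simulated arrays with 100 probes changed by a log2 value of 1 and 100 by 2 among 23817, 51% and 79% were recovered, with 8 calls among 23617 unchanged probes. The simulated noise was independent for each probe and array, drawn from the SD between clones. It holds no shared error of pool, dye, slide or neighbouring genes, so it does not give the rate of false calls on the real arrays.

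The genes named in the text are those of the study, the 12 largest called changes in each direction, up to 4 per list, 5 per clone by distance from the other clones, 10 by SD, and members of runs, and some genes that the rule names are not reported here. The members and lists were chosen with earlier results of these data known. Alternatives were another offset, median centring, Feature Extraction's log ratios, other filters, a dye term, an intensity trend, Student's test (the methods name it, but not for the arrays), a fit over all 8 arrays, windows of 40 genes, averaging a gene's probes, and leaving out each clone. Averaging the arrays of slide 1 and leaving out genes of the runs or of their chromosomes were added after seeing the data. Gene order and promoters are of RefSeq GRCh38.p14, and the arrays were designed on hg18.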

Additional observations from a re-analysis of the deposited data

Results flagged for a closer look

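A value was examined further when 1 clone lay far from the other 3 relative to the range of all 4 clones, by Dixon's criterion, which chance alone meets in about 1 group in 20. It was met by 17 of 180 genes and 3 of 32 list medians. Genes chosen for the distance of a clone are among them, so their number is no measure of how often clones differ.

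EV7 was the clone apart in 9 genes. AGR2 was at 3.45 against -0.23 to 0.16 in the others, ANKRD37 at 2.26 against -0.37 to 0.00, and EMP1 at 2.42 against 1.43 to 1.59. TRIB1 was at 0.88 against at least 1.42 in the others. The mitotic kinase gene BUB1 was at -0.12 against 0.76 to 0.90, CDK2 at -0.37 against 0.09 to 0.16, and mevalonate kinase, MVK, at 0.02 against 0.96 to 0.98. PCK2 was at -0.31 against -1.93 to -1.70 and KLHDC7B at -0.52 against -3.07 to -2.89. The median of the ATF4 list was -0.19 in EV7 against -0.74 to -0.66.

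EV12 was apart in 4 genes. AREG was at 0.02 against 2.02 to 2.20, CX3CL1 at -4.75 against -2.93 to -2.83, EGR1 at 1.52 against -1.49 to -1.09, and CYP1A1 at -2.98 against -0.34 to 0.17. Its median of MAPK feedback and ETS targets was 0.70 against 0.47 to 0.48, and that of matrix and plasminogen proteases -0.08 against 0.25 to 0.31.

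EV9 was apart in BMP6 at 3.78 against 0.01 to 0.49, in the carboxypeptidase CPZ at 3.30 against 0.28 to 0.76, and in the zinc transporter SLC30A3 at 2.78 against -0.01 to 0.24. EV18 was apart in the integrin subunit ITGB7, at 1.82 against 2.53 to 2.59.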

How the results depend on the processing

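Of 342 probes called at an adjusted p under 0.05, the count became 31 with median centring, 50 with no filter on dim probes, 190 with a dye term, 29 with the arrays of slide 1 averaged, 515 with an intensity trend, 1121 with 1 fit over all 8 arrays, and 0 by Student's test (3176 at an unadjusted p under 0.05). Leaving out a clone gave 0 to 487 (0 without EV7, 4 without EV9, 33 without EV18). The 574 probes at 2-fold and p under 0.01 became 1045 with Feature Extraction's log ratios and 194 by Student's test. The 185 probes past 2-fold in all clones became 343 with Feature Extraction's log ratios, and between 203 and 291 when 1 clone was left out and 3 had to agree (291 without EV12). The 161 genes in 5 shared runs (3 higher, and 2 lower with 58 genes) became 33 with median centring and 53 with windows of 40 genes. Under either they lay in 1 higher run and none was in a lower run. With Feature Extraction's log ratios the 161 genes became 471. The cause of these shifts was not tested. ERBB2 stayed between -0.44 and -0.34 and was called under no alternative. The medians of the interferon, MHC class I, NF-kB, ATF4, NRF2 and MAPK lists kept their sign under every alternative run, with -0.98 to -0.59 for interferon effectors and 0.39 to 0.55 for MAPK targets. None of 61 called probes of the genes chosen by rule reversed. Those still called numbered 61 with an intensity trend, 59 with an offset of 10, 57 with Feature Extraction's log ratios, 44 with a dye term, 14 with median centring or no filter, 11 with slide 1 averaged, 0 by Student's test and 0, 51, 4 and 17 without EV7, EV12, EV9 and EV18. Averaging all tested probes of a gene moved the value of 13 of 20 such genes by more than the SD between clones and reversed none of them. The planned block for slide could not be estimated because 1 slide alone held more than 1 of these arrays. No paired analysis was possible because each ErbB2-KD array was set against the pool in its own other channel. Dim probes have bounds only, which limits the falls and rises of the genes given with "at least".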

Other observations

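Keratins, the intermediate filament proteins of epithelia, were mostly above the pool, with 12 of 14 tested genes at a mean above 0 and a median of 0.37. The hair keratins KRT81 (3.46, 3.09, 3.34 and 1.95, adjusted p = 0.0158 by limma) and KRT86 (2.46, 2.82, 3.21 and 1.32, adjusted p = 0.0287) rose in all clones, and their near-identical sequences may share probes. KRT7, the keratin of simple ducts, stayed between -0.22 and 0.02. Among 14 integrin subunits, ITGB7 rose (2.56, 2.59, 2.53 and 1.82, adjusted p = 0.0106). ITGB6 (-0.87, -0.65, -1.72 and -0.97) and ITGAV (-0.38, -1.05, -0.74 and -0.82), the subunits of an integrin that activates latent TGF-beta, were below 0 in every clone and were not called (adjusted p = 0.0658 and 0.0701). Of 20 proteases of the matrix and plasminogen system, ADAMTS13, which cleaves von Willebrand factor, fell (mean -1.05, adjusted p = 0.0383). Its other, dimmer probe gave a mean of -0.08 and was not called.

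Besides BNIP3, the lactate exporter SLC16A3 was the other called gene among 39 of hypoxia and glycolysis (-0.76, -0.67, -0.93 and -0.62, adjusted p = 0.0426). Other hypoxia targets differed between clones, such as CA9, carbonic anhydrase 9, at 2.95 in EV7 and 3.65 in EV9 but 0.20 in EV12 and -0.09 in EV18. No gene of 14 S100 proteins was called by limma, and 4 had an unadjusted p under 0.05. S100A2 had the largest mean of these at 2.02 (adjusted p = 0.0519), with 1.38, 3.04, 2.49 and 1.19 in the clones. By chromosome, 16.9% of 478 tested genes on chromosome 9 had a mean above 0, with medians of -0.32, -0.35, -0.38 and -0.04 in the clones.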
